A study of Mus musculus with 4 samples.

Results

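The 10 heat shock chaperones described here are Hspa1a, Hspa1b, Hspa8, Hsp90aa1, Hsp90ab1, Hspb1, Hsph1, Dnajb1, Hspd1 and Hspe1. They were taken by name from the 54532 genes of the kidney count tables, and all 10 of the 10 passed the low-count filter that left 14908 genes for testing. The rule takes names and uses no measured value, but the names were chosen with earlier results of these data known.

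Heat shock chaperones are ATP-driven or ATP-independent helpers that bind unfolded proteins, prevent their aggregation and return them to a folded state. Heat, oxidants and other protein-damaging stresses release heat shock factor 1 (Hsf1), which binds heat shock elements, inverted repeats of the letters GAA, and drives the inducible members, while Hspa8 and Hsp90ab1 are the constitutive forms that most cells hold at high levels. In the kidney, inducible HSP70 is known as a marker of tubular cell stress, and the renal medulla is known for high chaperone expression because of its osmotic load.

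The libraries came from kidneys of female C57BL/6J mice, all injected intraperitoneally at 8 weeks of age with 500 µL pristane, an oil used to bring on lupus-like disease, and sampled 8 months later. The 2 WT libraries (WT 1 and WT 2) carried an intact Zbp1 gene, and the 2 ZBP1-KO libraries (ZBP1-KO 1 and ZBP1-KO 2) came from Zbp1-/- mice in which CRISPR-Cas9 had removed exons 2 to 8. Zbp1 codes for a receptor of left-handed (Z-form) DNA and RNA, and the comparison addresses kidney transcription in its absence. No pristane-free kidney was compared here, so the levels below are levels in pristane-treated animals of both genotypes. The titles number the kidneys within each genotype but do not state that they came from separate animals, so the p-values measure the spread between these samples, which may be technical.

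Total counts per library lay between 9878776 and 12921925, and genes encoded by mitochondrial DNA took 49.5% to 61.5% of them. The 10 chaperones together held 17961 counts in WT 1, 22059 in WT 2, 22225 in ZBP1-KO 1 and 18637 in ZBP1-KO 2. Log2 levels correlated over the 14908 genes with Pearson's r of 0.938 between the WT libraries and 0.9002 between the ZBP1-KO libraries, against 0.918 to 0.921 across genotypes, a description across genes of a shared tissue. Zbp1 itself had 94 and 125 counts in WT and 18 and 0 counts in ZBP1-KO (log2 fold change -3.64, SE 0.89, edgeR adjusted p = 0.999). The adjusted p of Zbp1 was 0.011 in the exact test and 0.0075 in the likelihood ratio test of edgeR, and its log2 fold change was -2.77 without ZBP1-KO 2 and -9.67 without ZBP1-KO 1, where the 0 counts make the size depend on the prior count. The 13 proximal tubule markers (Lrp2, Slc34a1, Kap and others) were detected in every library, with summed levels of 10740 to 13960 CPM (counts per 1000000 counts of a library), as the kidney label says. In bulk tissue, fewer cells of a type and less RNA per cell cannot be told apart.

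None of the 10 chaperones was called between genotypes in edgeR (quasi-likelihood F test, adjusted p under 0.05), a threshold that 0.0134% of all genes tested passed, and the adjusted p was 0.999 for each of them. At an unadjusted p under 0.05 in the same test, 1 of the 10 (Hspa1b) lay below it, against a background of 3.88% of genes. Levels of the WT and ZBP1-KO libraries did not overlap for 2 of the 10, against 32.3% of all genes. Hspe1 was higher in ZBP1-KO (16.0% of all genes) and Hspa1b was lower (16.3% of all genes). The median log2 fold change of the 10 (ZBP1-KO over WT) was 0.02, with 5 above 0 and 5 below, beside -0.01 over all genes. For 8 of the 10 the absolute log2 fold change was under 0.5, as it was for 75.8% of all genes, and their 95% intervals lay between -0.72 and 0.79. A log2 fold change of 1 in either direction lay outside the intervals of those 8 genes, and one of -1 lay inside those of Hspa1a and Hspa1b. All levels below are CPM scaled by TMM factors, which adjust the library sizes on the assumption that most genes do not differ between libraries.

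**Figure D1:**
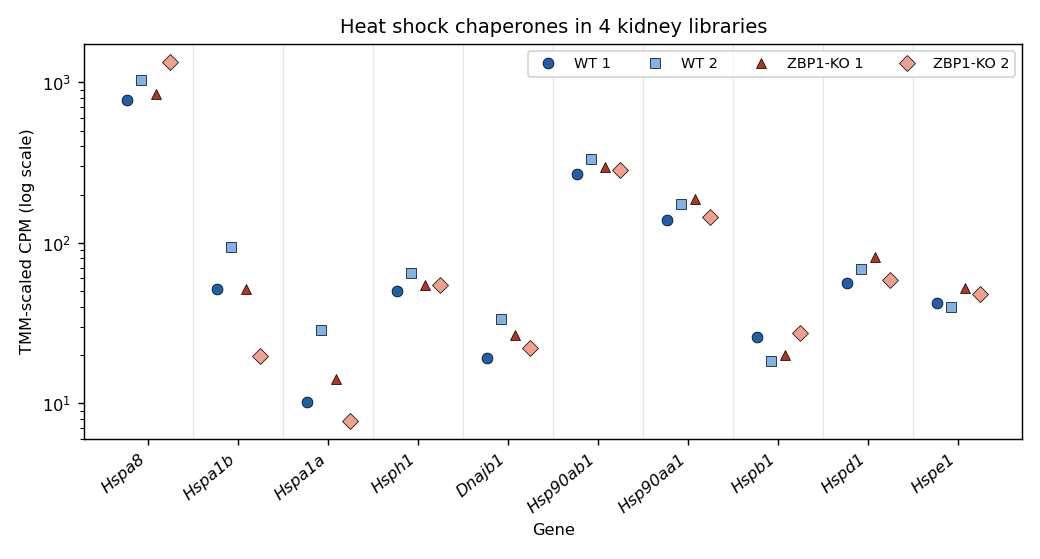
TMM-scaled CPM of the 10 chaperones on a log axis, with 1 point for each of the 4 libraries. Hspa8 sits highest at 782 to 1342 CPM, and the points of Hspa1b (19.6 to 94.6 CPM) and Hspa1a (7.76 to 28.7 CPM) are the most spread.

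The inducible cytosolic HSP70 proteins are made from a pair of intronless genes of the major histocompatibility region, Hspa1a (ENSMUSG00000091971, chr17:34969190-34972156, minus strand, GRCm38) and Hspa1b (ENSMUSG00000090877, chr17:34956436-34959238, minus strand). Their transcripts matched over 93.6% of 2701 aligned bases, with identical runs of up to 638 bases, and 38.1% of the 150-base stretches of Hspa1a occurred unchanged in Hspa1b. Because the authors counted only uniquely mapped read pairs, pairs from the identical stretches may be uncounted. The counts of both genes and their sum may thus be too low, and the split between the 2 genes is uncertain. Their sum is given beside each. Their upstream windows are printed because they show what the pair shares in the region that heat shock factors bind. The sequences are the 250 bases before each start in the RefSeq table (GRCm38.p6), 5' to 3' on the minus strand, at chr17:34972157-34972406 for Hspa1a and chr17:34959239-34959488 for Hspa1b, with the heat shock element GAANNTTC in capitals.
Hspa1a: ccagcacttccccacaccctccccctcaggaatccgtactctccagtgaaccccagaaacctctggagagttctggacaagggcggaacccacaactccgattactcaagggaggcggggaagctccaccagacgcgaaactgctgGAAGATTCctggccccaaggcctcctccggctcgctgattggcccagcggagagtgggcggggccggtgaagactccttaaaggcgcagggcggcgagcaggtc
Hspa1b: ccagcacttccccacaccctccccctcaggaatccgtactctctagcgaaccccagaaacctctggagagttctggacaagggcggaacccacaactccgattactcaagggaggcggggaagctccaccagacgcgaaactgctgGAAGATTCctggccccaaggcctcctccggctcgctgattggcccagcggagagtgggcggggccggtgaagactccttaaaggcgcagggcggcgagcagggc
Both windows held the same element, GAAGATTC, beginning 104 bases before the start. Counted from 1 at the first printed base, the substitutions from Hspa1a to Hspa1b were C44T, T47C and T249G, and a further one, C276T, lay after the start, so 4 of 300 bases differed over the full window.

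Hspa1b levels were 51.31 CPM in WT 1, 94.6 CPM in WT 2, 51.25 CPM in ZBP1-KO 1 and 19.6 CPM in ZBP1-KO 2. WT 2 stood highest and ZBP1-KO 2 lowest, while WT 1 and ZBP1-KO 1 were nearly level. The group means were 73.0 ± 30.6 CPM for WT against 35.4 ± 22.4 CPM for ZBP1-KO (SD, n = 2 each). The log2 fold change was -1.03 (SE 0.38, 95% interval -1.87 to -0.20), with an edgeR unadjusted p of 0.0198 and an adjusted p of 0.999. When every gene with a count above 0 in some library entered the fit, the adjusted p of Hspa1b in edgeR was 0.0025. That was the only setting tried that called a chaperone, and 0.186% of genes were then called, with 0.122% of genes called lower in ZBP1-KO. Scaled by total counts alone, an alternative added after the data had been seen, the WT and ZBP1-KO levels of Hspa1b overlapped, at 50.6 CPM in WT 1 against 60.7 CPM in ZBP1-KO 1.

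Hspa1a levels were 10.2 CPM in WT 1, 28.7 CPM in WT 2, 14.2 CPM in ZBP1-KO 1 and 7.76 CPM in ZBP1-KO 2. The order had WT 2 highest and ZBP1-KO 2 lowest as for Hspa1b, and the groups overlapped. Its log2 fold change was -0.81 (SE 0.45, 95% interval -1.78 to 0.17, edgeR adjusted p = 0.999), and it was 0.11 without WT 2. Summed into 1 row before the fit, the pair gave a log2 fold change of -0.98 (edgeR adjusted p = 0.999). The highest level was 4.83 times the lowest for Hspa1b and 3.69 times for Hspa1a, and the log2 ranges were wider than those of 90.4% and 86.1% of all genes. Gm20481, which shares 564 exonic bases with Hspa1a on the opposite strand, had 0 counts in all 4 libraries.

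Hspa8 (ENSMUSG00000015656, chr9:40800984-40810087) encodes Hsc70, the constitutive cytosolic HSP70 that folds newly made proteins and uncoats clathrin. It had 782 CPM in WT 1, 1030.0 CPM in WT 2, 852 CPM in ZBP1-KO 1 and 1342 CPM in ZBP1-KO 2. Here ZBP1-KO 2, the library with the least Hspa1a and Hspa1b, was the highest. The groups overlapped, with a log2 fold change of 0.28 (SE 0.23, 95% interval -0.24 to 0.79, edgeR adjusted p = 0.999). Scaled by total counts alone, the 2 genes whose groups did not overlap were Hspa8 and Hspe1, both higher in ZBP1-KO. That scaling moved all genes upward (median log2 fold change 0.16), and the share of all genes without overlap under it was not counted.

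The 2 partners that drive the HSP70 cycle spread less than Hspa1a and Hspa1b, with a highest level 1.74 (Dnajb1) and 1.29 (Hsph1) times the lowest. Dnajb1 (ENSMUSG00000005483, chr8:83608193-83612653), the J-domain protein that delivers clients to HSP70 and stimulates its ATPase, had 19.2 and 33.4 CPM in the WT kidneys against 26.8 and 22.2 CPM in the ZBP1-KO kidneys. Hsph1 (ENSMUSG00000029657, chr5:149614287-149636376), the HSP110 protein that exchanges nucleotide on HSP70, had 49.9 and 64.6 CPM in the WT kidneys against 54.34 and 54.29 CPM in the ZBP1-KO kidneys. For both genes the ZBP1-KO levels fell inside the WT range, so that the genotype difference was smaller than the gap between the WT libraries. The log2 fold changes were -0.10 (95% interval -0.72 to 0.52) for Dnajb1 and -0.08 (95% interval -0.52 to 0.37) for Hsph1.

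The cytosolic HSP90 proteins hold kinases, steroid receptors and other clients in an activatable form. Hsp90ab1 (ENSMUSG00000023944, chr17:45567775-45573271), the constitutive form, had 269 and 333 CPM in the WT kidneys against 297 and 283 CPM in the ZBP1-KO kidneys. Hsp90aa1 (ENSMUSG00000021270, chr12:110690605-110702728), the more inducible form, had 139 and 176 CPM in the WT kidneys against 189 and 145 CPM in the ZBP1-KO kidneys. Levels of both genes overlapped between genotypes. The log2 fold changes were -0.05 (SE 0.18, 95% interval -0.45 to 0.35) and 0.08 (SE 0.20, 95% interval -0.36 to 0.53).

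Hspb1 (ENSMUSG00000004951, chr5:135887919-135889563), a small heat shock protein that holds unfolded proteins without ATP and acts on actin filaments, had 26.1 CPM in WT 1, 18.4 CPM in WT 2, 19.98 CPM in ZBP1-KO 1 and 27.5 CPM in ZBP1-KO 2. It was lowest in WT 2 and highest in ZBP1-KO 2, the reverse of Hspa1a and Hspa1b. The log2 fold change was 0.09 (SE 0.27, 95% interval -0.50 to 0.68). Its upstream region is printed because it held a pair of elements, 117 and 97 bases before the start, in capitals at chr5:135887772-135887859 (GRCm38.p6, RefSeq, plus strand).
Hspb1: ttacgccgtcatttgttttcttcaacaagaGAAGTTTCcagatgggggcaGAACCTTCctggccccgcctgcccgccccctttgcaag

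Hspd1 (ENSMUSG00000025980, chr1:55077835-55088243, minus strand) and Hspe1 (ENSMUSG00000073676, chr1:55088132-55091307, plus strand) encode HSP60 and its lid HSP10, which form the folding chamber of the mitochondrial matrix, and are read outward from a shared start region. Their exons overlap by 112 bases on opposite strands, so counts there depend on strand handling. The methods describe a strand-specific library protocol, but whether counting used the strand is not given in the sources used here. A run of overlapping elements is printed because it makes up 3-unit elements in a window of each gene. The run lies at chr1:55088059-55088076 (GRCm38.p6, RefSeq), and begins 89 bases before the Hspe1 start on the plus strand, all letters being part of an element. All 18 bases are annotated as exon of Hspd1, and the run falls in the window of the second Hspd1 start of the table, not in that of the start that matches the gene coordinates above, which held 0 elements.
Hspe1: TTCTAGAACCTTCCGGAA
Hspe1 levels were 41.9 CPM in WT 1, 39.6 CPM in WT 2, 52.2 CPM in ZBP1-KO 1 and 47.8 CPM in ZBP1-KO 2. Both ZBP1-KO libraries were above both WT libraries, with means of 50.02 ± 3.10 CPM against 40.8 ± 1.63 CPM (SD, n = 2 each). The log2 fold change was 0.30 (SE 0.20, 95% interval -0.13 to 0.72, edgeR adjusted p = 0.999). Hspd1 levels were 56.1 and 68.8 CPM in the WT kidneys against 81.6 and 58.8 CPM in the ZBP1-KO kidneys, and the groups overlapped. The Hspd1 log2 fold change was 0.17 (SE 0.22, 95% interval -0.30 to 0.64).

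**Figure D2:**
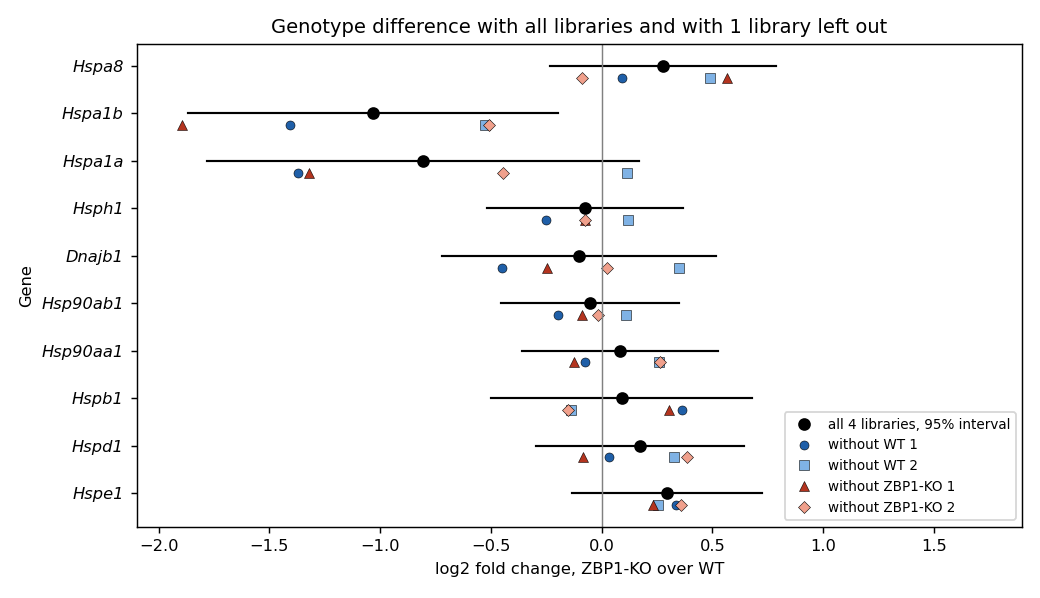
Log2 fold changes of ZBP1-KO over WT for the 10 chaperones, with the edgeR estimate and 95% interval from all 4 libraries in black and, below each, the estimates with 1 library left out. Hspa1b stays below 0 (-1.90 to -0.51) and Hspe1 above 0 (0.23 to 0.36) in the 4 reduced fits, and the other 8 genes have estimates on both sides of 0.

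The RefSeq table held 10 windows for 7 of the 10 chaperones, each running from 250 bases before to 50 after a start. Hspa8, Hsp90aa1 and Hsp90ab1 had no entry in it. The 2-unit element, GAANNTTC or TTCNNGAA searched on both strands, occurred in 7 of those 10 windows, against 15.1% of the 32851 windows of the table. The 7 windows are not separate, since the 2 of Hsph1 overlap and hold the same matches, and those of Hspd1 and Hspe1 hold the same run. The 3-unit element, which is a 2-unit element followed after 2 free letters by 1 more unit in the alternate direction, so that it always contains 2-unit elements, occurred in windows of Hspd1, Hspe1 and Hsph1, against 0.603% of all windows. In Hsph1 the 3-unit match lay after the start. The 2 windows of Dnajb1 did not hold these letters.

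Levels were compared between genes per length, as TMM-scaled CPM divided by the kilobases of exon. On that scale the mean over the 4 libraries was 233 for Hspa8, 98.5 for Hsp90ab1 and 41.2 for Hsp90aa1, and these 3 kept that order in every library. They were followed by Hspe1 at 30.8, Hspd1 at 25.1, Hspb1 at 22.3 and Hspa1b at 19.3, and the lowest were Dnajb1 at 7.93, Hsph1 at 7.68 and Hspa1a at 5.13. The place of Hspa1b moved from the 4th rank in WT 2 to the 7th in WT 1 and ZBP1-KO 1 and the 8th in ZBP1-KO 2. Hspa1a and Hspa1b may stand too low on this scale, since pairs from their identical stretches may be uncounted. The exon length also joins all annotated transcripts of a gene, 4301 bases for Hspa8 against 2394 for its longest coding transcript. Other genes may thus stand too low as well, and the order of genes with close values is uncertain.

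Libraries of the same genotype were often farther apart than the genotype means. For 9 of the 10 chaperones the larger difference between libraries of the same genotype, on the log2 scale, exceeded the difference of the group means, as it did for 79.1% of all genes, and Hspe1 was the exception. Between the WT libraries, 8 of the 10 were higher in WT 2, against 49.7% of all genes. Between the ZBP1-KO libraries, 8 of the 10 were lower in ZBP1-KO 2, against 50.2% of all genes. The 7 genes with both patterns were Hspa1a, Hspa1b, Hsp90aa1, Hsp90ab1, Hsph1, Dnajb1 and Hspd1, where 24.7% of all genes had both. Hsph1 was nearly level between the ZBP1-KO libraries, at 54.34 and 54.29 CPM, so its direction there is uncertain.

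Summed over the 10 genes the level was 1444 CPM in WT 1, 1887 CPM in WT 2, 1639 CPM in ZBP1-KO 1 and 2008 CPM in ZBP1-KO 2, and Hspa8 alone made up 52.0% to 66.9% of it. The log2 difference of the sums was 0.14 (exact permutation test, two-sided, p = 0.667, n = 2 each, where 0.333 is the smallest p that this design allows). Without Hspa8 the sums were 663, 856, 786 and 666 CPM in the same order of libraries, with a log2 difference of -0.06 (exact permutation p = 1).

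Ratios within a library do not depend on scaling, but the size of those with Hspa1a and Hspa1b may be affected by uncounted pairs. Counts of Hspa1a and Hspa1b together were 0.0787 of those of Hspa8 in WT 1, 0.120 in WT 2, 0.0768 in ZBP1-KO 1 and 0.0204 in ZBP1-KO 2. The WT 1 and ZBP1-KO 1 values lay within each other's 95% counting intervals (0.0730 to 0.0847 and 0.0717 to 0.0823), while WT 2 stood above and ZBP1-KO 2 below them. The log2 difference was -1.29 (exact permutation test, two-sided, p = 0.333, the smallest possible), and it was -0.34 without ZBP1-KO 2. The Hsp90aa1 to Hsp90ab1 ratio was 0.518 and 0.528 in WT and 0.635 and 0.510 in ZBP1-KO (exact permutation p = 1). The Hspe1 to Hspd1 ratio was 0.748 and 0.576 in WT and 0.640 and 0.813 in ZBP1-KO (exact permutation p = 0.667). The Hspa1b to Hspa1a ratio was 5.02 and 3.30 in WT and 3.601 and 2.53 in ZBP1-KO (exact permutation p = 0.667). The 4 ratios were tested with no adjustment, since none could pass 0.05.

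**Figure D3:**
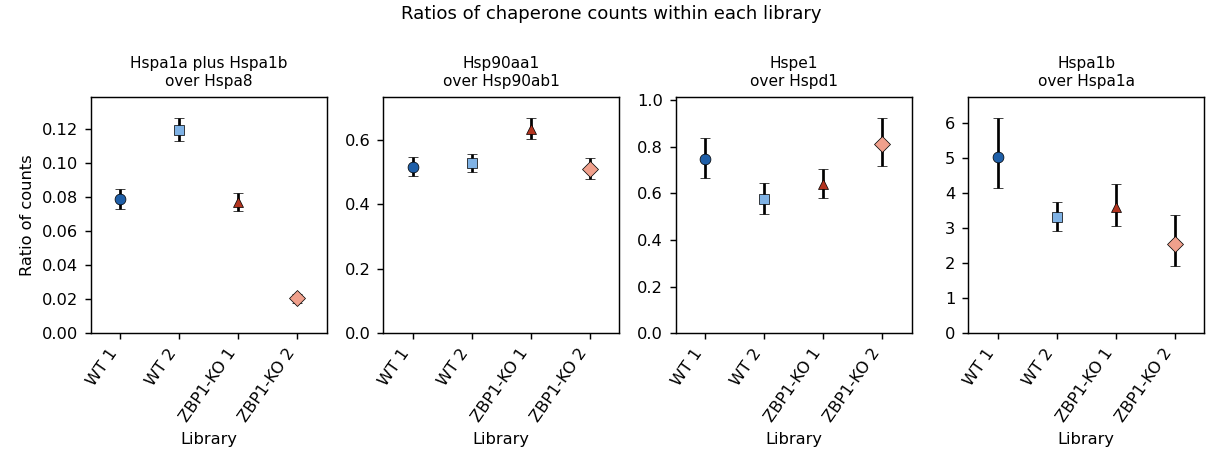
Ratios of counts within each library for 4 pairs of chaperones, with 1 point per library and 95% intervals that cover counting error only. The ratio of Hspa1a plus Hspa1b to Hspa8 runs from 0.0204 in ZBP1-KO 2 to 0.120 in WT 2, and the other ratios overlap between genotypes.

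The wider chaperone network was read from lists of its parts, and none of its 107 other tested genes was called (median log2 fold change 0.00), with 1 lower and 0 higher where edgeR gave an unadjusted p under 0.05 (1.97% and 1.91% of all genes). That gene was Grpel1, the nucleotide exchange factor of mitochondrial HSP70, with 30.4 and 28.9 CPM in the WT kidneys against 17.6 and 18.1 CPM in the ZBP1-KO kidneys. Its groups did not overlap, and of the 14 genes of its list this held for 3 lower and 2 higher (16.3% and 16.0% of all genes). The log2 fold change of Grpel1 was -0.73 (SE 0.23, edgeR adjusted p = 0.999). Hsf1, the main heat shock factor, had 25.6 and 36.4 CPM in the WT kidneys against 31.4 and 42.6 CPM in the ZBP1-KO kidneys (log2 fold change 0.25, SE 0.25). Hsf2, its partner factor, had 10.1 and 17.2 CPM in the WT kidneys against 13.1 and 10.99 CPM in the ZBP1-KO kidneys (log2 fold change -0.18, SE 0.34). Both overlapped between genotypes, as did all 5 tested heat shock factors and regulators.

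Of 10 other HSP70 and HSP110 genes, 0 were called and their median log2 fold change was 0.19. Groups did not overlap for 3 of them higher and 1 lower in ZBP1-KO (16.0% and 16.3% of all genes). The genes named in this paragraph were picked among those without overlap, so their lack of overlap is not a result. Hspa5, the endoplasmic reticulum HSP70 known as BiP, had 128 and 158 CPM in the WT kidneys against 178 and 161 CPM in the ZBP1-KO kidneys, without overlap (log2 fold change 0.25, SE 0.19). Hsp90b1, the endoplasmic reticulum HSP90, had 144 and 167 CPM in the WT kidneys against 196 and 184 CPM in the ZBP1-KO kidneys, also without overlap (log2 fold change 0.29, SE 0.18). Calr, the calcium-binding lectin chaperone of the same compartment, had a log2 fold change of 0.25 (SE 0.18). The 20 genes of its list had a median of 0.05, with 5 higher and 2 lower without overlap. Among the 28 HSP70 and HSP90 cochaperones (median 0.08), Cdc37, which brings kinases to HSP90, had 48.4 and 47.5 CPM in the WT kidneys against 34.7 and 37.7 CPM in the ZBP1-KO kidneys (log2 fold change -0.41, SE 0.20), and Ahsa2, a homologue of an HSP90 ATPase activator, had the value farthest from 0 at 0.84 (SE 0.42). Medians were -0.31 for 6 other small heat shock proteins, -0.01 for 12 other DNAJA and DNAJB proteins, 0.04 for 14 chaperonin and prefoldin subunits, -0.02 for 14 mitochondrial chaperones and proteases, and -0.05 for 20 other HSF1 targets. None of these genes was called.

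**Figure D4:**
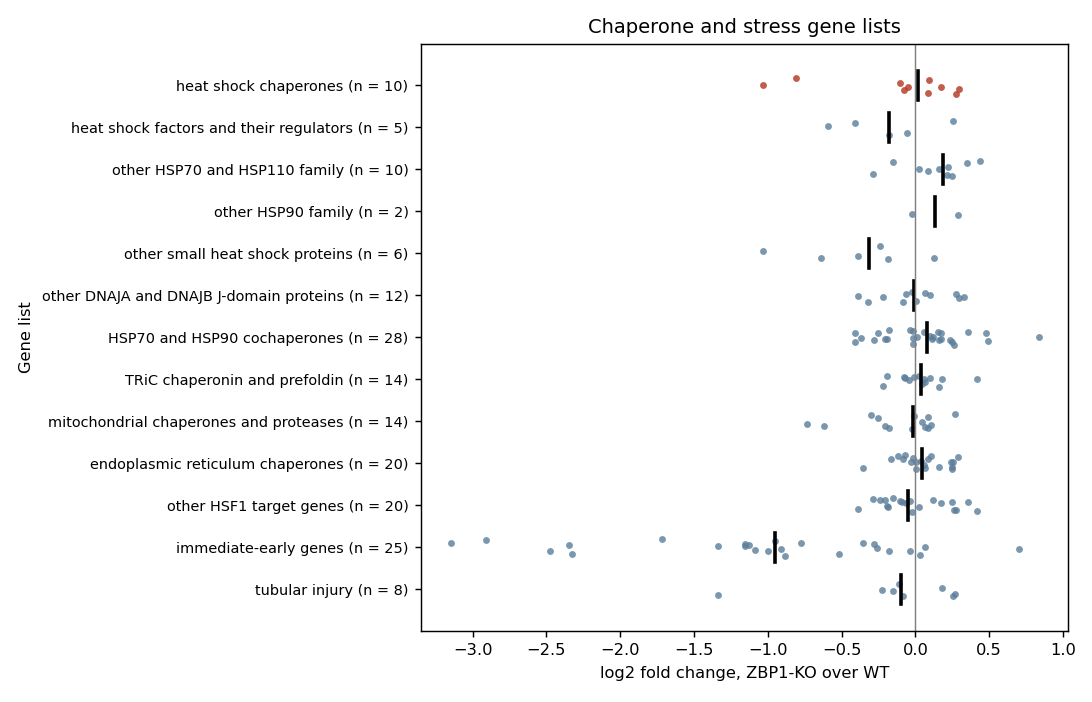
Log2 fold changes of ZBP1-KO over WT for the tested genes of 13 lists, 1 point per gene, with the list median as a bar and vertical scatter for display only. The chaperone lists centre between -0.31 and 0.19, whereas the immediate-early list centres at -0.95.

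Immediate-early genes, which answer many stimuli within minutes, were measured beside the chaperones. Of 25 tested, 0 were called by edgeR, 12 lay lower and 0 higher by an unadjusted p under 0.05 (background 1.97% lower and 1.91% higher), and their median log2 fold change was -0.95. Fos had 42.9 and 11.6 CPM in the WT kidneys against 0.664 and 5.82 CPM in the ZBP1-KO kidneys, and Egr1 had 122 and 15.7 CPM in the WT kidneys against 10.8 and 7.33 CPM in the ZBP1-KO kidneys. With WT 1 left out, the log2 fold change moved from -3.15 to -1.865 for Fos and from -2.91 to -0.78 for Egr1. The summed level of the immediate-early list was highest in WT 1 at 871 CPM, followed by WT 2 at 454 CPM, ZBP1-KO 2 at 324 CPM and ZBP1-KO 1 at 322 CPM. Hspa1a and Hspa1b together had 61.5 CPM in WT 1, 123 CPM in WT 2, 65.5 CPM in ZBP1-KO 1 and 27.4 CPM in ZBP1-KO 2. The highest library thus differed between them, WT 1 for the immediate-early genes and WT 2 for the HSP70 pair. Dusp1, a phosphatase of this class, had the lowest adjusted p among them, 0.389 in the quasi-likelihood test of edgeR, with 93.4 and 55.8 CPM in the WT kidneys against 15.6 and 30.2 CPM in the ZBP1-KO kidneys. Other tests called some of these genes lower in ZBP1-KO: Dusp1, Egr1 and Nr4a1 were called by the exact test of edgeR, the same 3 and Fos by its likelihood ratio test, and Dusp1 alone by DESeq2 (adjusted p = 0.0006) and limma-voom (adjusted p = 0.00889). No chaperone was called by any of these tests.

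**Figure D5:**
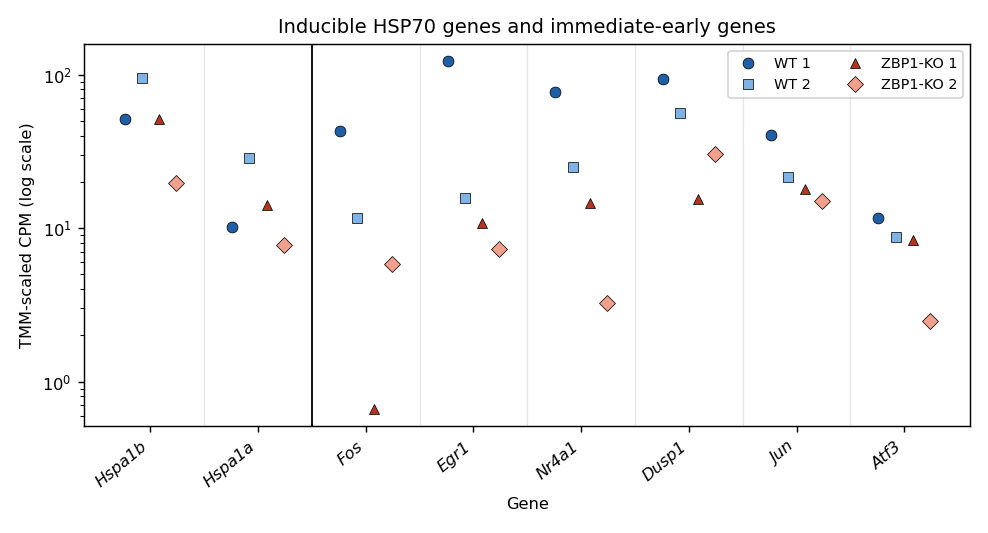
TMM-scaled CPM on a log axis of the inducible HSP70 genes (left of the line) and 6 immediate-early genes (right), with 1 point for each library. Hspa1b and Hspa1a are highest in WT 2, whereas the 6 immediate-early genes are highest in WT 1.

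Cell type markers also differed between libraries. The 10 fat markers (Adipoq, Plin1, Fabp4 and others) summed to 328 and 359 CPM in the WT kidneys against 505 and 521 CPM in the ZBP1-KO kidneys. In edgeR, 7 of 8 tested genes were higher at an unadjusted p under 0.05 (1.91% of all genes) and Cfd was called. The sum includes Pck1, the tested marker that did not pass, at a log2 fold change of 0.09 beside a list median of 2.17. The 9 collecting duct markers summed to 1155 and 1291 CPM in the WT kidneys against 930.1 and 720 CPM in the ZBP1-KO kidneys. Of 8 tested, 3 (Aqp2, Aqp3 and Scnn1b) were lower at an unadjusted p under 0.05 in edgeR (1.97% of all genes). The other tested markers had log2 fold changes of -0.23 (Scnn1g), -0.15 (Atp6v1g3), -0.03 (Slc26a4), 0.01 (Foxi1) and 0.08 (Slc4a1). Leukocyte markers summed to 309 and 192 CPM in the WT kidneys against 281 and 279 CPM in the ZBP1-KO kidneys, and tubular injury genes to 867 and 755 CPM in the WT kidneys against 834 and 705 CPM in the ZBP1-KO kidneys. Of the 16 leukocyte markers 1 to 3 were at 0 in each library, as were 1 to 3 of the 10 fat markers. At an unadjusted p under 0.05 in edgeR, 1 of 13 proximal tubule markers (Slc22a6) and 1 of 8 thick ascending limb and distal tubule markers (Pvalb) were lower (1.97% of all genes), 1 of 6 podocyte markers (Synpo) was higher (1.91% of all genes), and none of the endothelial, smooth muscle, leukocyte or injury genes passed. The part of these markers, of the immediate-early genes and of the mitochondrial share in the levels of Hspa1a and Hspa1b was not tested.

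The 5 genes whose centred log2 levels over the 4 libraries came closest to the mean profile of the 6 inducible cytosolic chaperones (Hspa1a, Hspa1b, Hsp90aa1, Hspb1, Hsph1 and Dnajb1) were Ppm1g, Rps6ka4, E2f4, Stag1 and Tprgl. Their Euclidean distances were 0.0236 to 0.0739 log2 units, among 5013 genes with a mean of at least 20 CPM outside the lists. The profile itself was -0.13 in WT 1, 0.43 in WT 2, 0.06 in ZBP1-KO 1 and -0.35 in ZBP1-KO 2. Hspa1a (1.08 in WT 2, -0.78 in ZBP1-KO 2) and Hspa1b (1.01 and -1.25) lay farthest from 0 in these libraries. Hspb1 ran the other way (-0.30 and 0.28), so the mean does not describe each of the 6 genes. With 4 libraries this likeness is a description.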

How the data were processed

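RNA of 4 kidneys, 2 per genotype, was measured by poly(A) RNA-seq. The authors prepared TruSeq libraries, sequenced read pairs, trimmed them with Trimmomatic, aligned them with HISAT2 to mm10 (per the processing notes) and counted uniquely mapped pairs with featureCounts. The deposited values are raw counts per Ensembl gene. The methods describe a strand-specific protocol. Annotation release, program versions and strand setting of the counting are not given in the sources used here. Unique mapping makes near-identical and overlapping genes uncertain, and reads were counted without molecular identifiers.

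Symbols and positions came from GENCODE M21 (GRCm38), which matched 54495 of 54532 IDs, and promoter sequences from a RefSeq table (GRCm38.p6). Counts were filtered with filterByExpr (minimum count 10, minimum total 15), scaled by TMM and tested in edgeR 4.0.16 (R 4.3.3; quasi-likelihood F test, two-sided, genotype only, prior count 0.125), with Benjamini-Hochberg adjustment over 14908 genes. The method was tested on simulated data. SE is the absolute log2 fold change over the square root of F. Sums and ratios used exact permutation tests over libraries. Intervals of shares and ratios cover counting error only. A gene with 0 counts may have up to 3 counts, or 0.221 to 0.323 CPM.

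Members and lists were chosen with earlier results of these data known. All members were named. List genes were named when called, or when among the 4 with the largest change per list at a mean of at least 5 CPM without overlap, and Hsf1, Hsf2, Fos, Jun, Egr1, Atf3 and Dusp1 always. Of these only examples are described. The likeness rule took the 5 nearest genes. Of 242 list symbols, 241 were found. Alternatives were other scalings, filters, tests (DESeq2 1.42.0, limma-voom 3.58.1, edgeR exact and likelihood ratio tests), the replicate number as a block, removal of mitochondrial genes, Hspa1a and Hspa1b summed, and each library left out. Scaling by total counts, and calls of list genes by the other tests and the block, were chosen after seeing the data.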

Additional observations from a re-analysis of the deposited data

How the results depend on the processing

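No chaperone was called with any alternative except the fit of every gene with a count above 0 in some library (22065 genes), which called 1, Hspa1b (log2 fold change -1.04); the cause was not tested. Of the 140 tested genes of the other chaperone, immediate-early and injury lists, 0 were called with TMM and the quasi-likelihood test. The likelihood ratio test called 4 of the 140, the exact test 3, and DESeq2 and limma-voom 1 each, counts taken after the data had been seen. In the fit of 22065 genes, 152 genes of these lists were tested and 8 were called. All these called list genes were immediate-early genes. Over the fits of all 4 libraries, the adjusted p of Hspa1b ranged from 0.0025 to 0.9998. Over all genes, 2 were called with TMM, 41 in that fit, 26 by the likelihood ratio test, 14 by the exact test, 9 by DESeq2, 7 by limma-voom, 4 without mitochondrial genes, 1 with total counts and 0 to 15 with a library left out (0 without WT 1, 15 without ZBP1-KO 2). Same-numbered libraries did not deviate together (correlation 0.00399), and a fit with the replicate block called 11 genes and 0 chaperones, and 3 immediate-early genes among them (Nr4a1, Egr1 and Dusp1). Total counts alone, added after the data had been seen, shifted the log2 fold changes of all genes (median 0.16) and turned those of Hsp90ab1 (0.13), Hsph1 (0.10), Dnajb1 (0.10) and Hsf2 (0.019) above 0, all of them under that shift.

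With 1 library left out, where the lone library was assumed to vary like the other group, 0 chaperones were called, and 0 to 2 of those 140 list genes were called. Log2 fold changes then ran from -1.37 to 0.11 for Hspa1a, -1.90 to -0.51 for Hspa1b, -0.088 to 0.57 for Hspa8, -0.12 to 0.26 for Hsp90aa1, -0.20 to 0.11 for Hsp90ab1, -0.15 to 0.36 for Hspb1, -0.25 to 0.12 for Hsph1, -0.45 to 0.35 for Dnajb1, -0.0857 to 0.39 for Hspd1, 0.23 to 0.36 for Hspe1 and -0.51 to 0.26 for Hsf2. The median over the 10 ran from -0.14 to 0.19, the summed level from -0.06 to 0.33, and the log2 ratio differences from -2.25 to -0.34 (Hspa1a plus Hspa1b over Hspa8), -0.03 to 0.28 (Hsp90aa1 over Hsp90ab1), -0.05 to 0.33 (Hspe1 over Hspd1) and -0.74 to -0.13 (Hspa1b over Hspa1a). These ranges show the effect of leaving out a library and are not confidence intervals. With 2 libraries a group, any difference within the interval given for a gene in the Results remains compatible with the data. The absence of a call therefore does not show that the levels were equal.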
